A study of Homo sapiens with 6 samples.

Results

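The integrin subunit and laminin chain genes were taken by symbol from the gene table of an RNA sequencing experiment on MHCC97H, an established human hepatocellular carcinoma line. The pattern took every ITGA, ITGB, LAMA, LAMB and LAMC gene, and it found 38 of the 58825 genes in the table, of which 18 encode integrin alpha subunits, 8 integrin beta subunits, 5 laminin alpha chains, 4 laminin beta chains and 3 laminin gamma chains. The pattern reads only gene symbols, though this gene family was picked for study with earlier results of these data known. The table holds 6 libraries of 1 cell line, 3 from cells with a control short hairpin RNA (shControl, genotype given as WT) and 3 from cells with a hairpin against the splicing factor PTBP1 (shPTBP1, genotype given as PTBP1 Knockdown). The labels do not say which hairpin was used or whether the 3 libraries of a group came from separate cultures, so p-values measure only the spread between these libraries, which may be technical. The study asked which transcripts and splice forms depend on PTBP1, and the only contrast is shPTBP1 against shControl.

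Integrins are cell surface receptors made of 1 alpha and 1 beta subunit, and a subunit reaches the surface only as part of such a pair. They anchor cells to the extracellular matrix and signal through the adaptors of focal adhesions. Laminins are secreted trimers of 1 alpha, 1 beta and 1 gamma chain that form the basement membrane, and the laminin-binding integrins are their main receptors on epithelial cells. In the liver the sinusoid lacks a continuous basement membrane, and laminin and its receptors are known to increase in liver tumours. The measurements below are of mRNA, so the pairs and trimers named are those that the transcripts would allow, not complexes that were seen.

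The libraries held 68704509 to 85317970 estimated counts each. PTBP1, the targeted gene, was at 21.2, 16.4 and 27.4 FPKM (fragments scaled to transcript length and library depth) in shControl 1, 2 and 3 and at 17.3, 16.9 and 17.96 FPKM in shPTBP1 1, 2 and 3. The groups overlapped, with a log2 fold change of -0.29 ± 0.18 (SE, n = 3 per group, edgeR quasi-likelihood test, adjusted p = 0.953), so directions below are those of the labels. The paper reports that the knockdown in MHCC97H was checked by western blot and RT-qPCR. Whether that check used the cultures sequenced here is not stated. Summed hepatocyte and liver tumour markers were at 0.06 to 0.24 FPKM and 7 of 12, among them ALB and AFP, were at 0 FPKM in every library. These markers thus did not show the labelled liver cell type. Of 5 epithelial markers KRT8 and KRT18 made up nearly all of the summed 128 to 161 FPKM, and EPCAM was at 0. Red cell markers summed to 594 to 990 FPKM in the libraries numbered 1 and 2 and to 0.88 and 1.09 FPKM in those numbered 3, and neutrophil and monocyte markers to 15.5 to 27.2 against 0.22 FPKM. Lymphocyte markers summed to 0.21 to 1.5 FPKM, pan-leukocyte markers to 0.25 to 2.8, platelet markers to 0.59 to 1.25 and endothelial markers to 1.51 to 4.52 FPKM. Fibroblast and stellate markers summed to 29.3, 34.6 and 37.1 FPKM in shControl and to 54.3, 52.8 and 40.1 FPKM in shPTBP1. COL3A1 and COL1A1 carried that sum, while COL1A2 was at 0 and DCN and LUM did not pass 0.06 FPKM in any library. Of the fibroblast and stellate markers only COL3A1 separated the groups, at 20.06, 25.61 and 25.54 FPKM in shControl and 43.15, 41.30 and 32.41 FPKM in shPTBP1. In the other lists KRT8 was higher in shPTBP1, at 41.8, 43.4 and 37.7 against 47.8, 53.2 and 49.5 FPKM. The pan-leukocyte marker LCP1 was lower, at 1.56, 1.18 and 1.07 against 0.35, 0.40 and 0.08 FPKM. The platelet marker GP6, at no more than 0.04 FPKM, was also lower. COL1A1 overlapped, with a log2 fold change of 0.01.

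Of the 38 genes, 15 were at 1 FPKM or more in each of the 6 libraries, the level taken here as present. These were 8 integrin and 7 laminin genes. Another 3 genes, ITGA2, ITGB4 and LAMC3, lay on both sides of 1 FPKM, and 20 were under 1 FPKM in every library. ITGA8, ITGA9 and LAMB4 were listed at 0 FPKM in each library. The filter on low counts kept 33 genes for testing and left out ITGA8, ITGA9, ITGA11, ITGB7 and LAMB4.

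**Figure D1:**
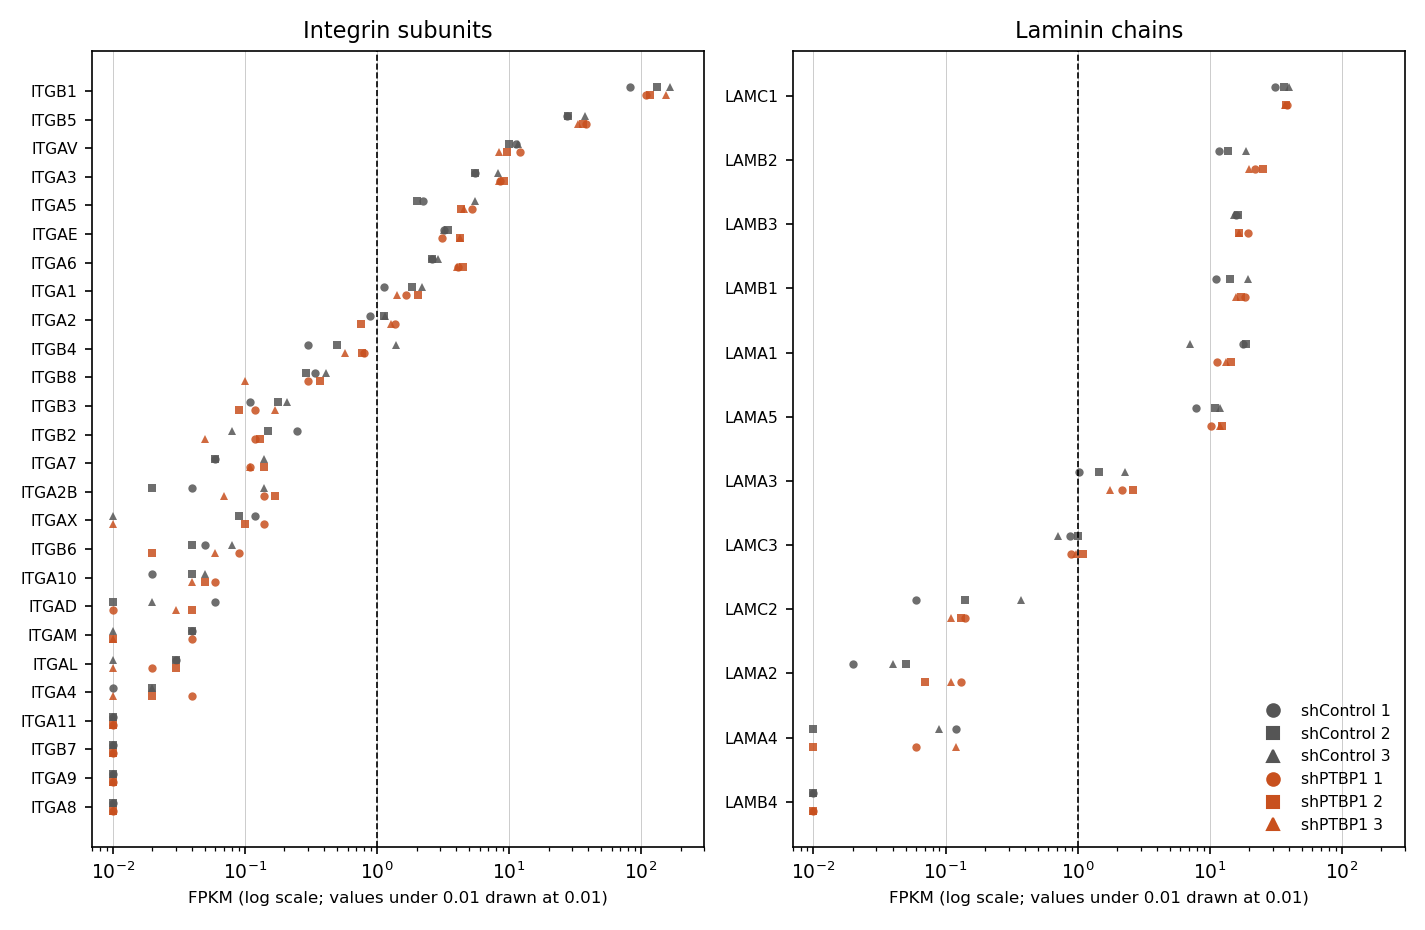
FPKM of the 26 integrin genes (left) and 12 laminin genes (right) in the 6 libraries on a log axis, with shControl in grey, shPTBP1 in orange and the library number as the marker shape. The dashed line marks 1 FPKM, above which 15 genes lie in every library.

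Among the beta subunits ITGB1, the partner of most alpha subunits, and ITGB5, a partner of ITGAV, together gave 98.9% to 99.5% of all integrin beta FPKM. ITGB1 was at 82.2, 133 and 165 FPKM in shControl and at 110, 116 and 156 FPKM in shPTBP1. The shControl libraries alone spanned the shPTBP1 values, and the log2 fold change was 0.04 ± 0.25 (SE, n = 3 per group). ITGB5 was at 27.6, 27.9 and 38.0 FPKM in shControl and at 38.4, 36.1 and 33.3 FPKM in shPTBP1. Only shControl 3 overlapped with shPTBP1, and the log2 fold change was 0.24 ± 0.14 (SE, n = 3 per group). ITGB4, which pairs with ITGA6 in hemidesmosomes, was at 0.30 to 1.39 FPKM, with the highest value in shControl 3. The other 5 beta subunits, ITGB2, ITGB3, ITGB6, ITGB7 and ITGB8, did not exceed 0.41 FPKM in any library.

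ITGAV, the alpha subunit of receptors that bind the RGD motif of fibronectin and vitronectin, was the highest alpha subunit by mean FPKM. It was at 11.3, 9.98 and 11.8 FPKM in shControl and at 12.2, 9.70 and 8.36 FPKM in shPTBP1, and the groups overlapped. ITGA5, the fibronectin receptor subunit, was at 2.25, 2.00 and 5.55 FPKM in shControl and at 5.29, 4.37 and 4.55 FPKM in shPTBP1. shControl 3 was above all shPTBP1 libraries and the other two shControl libraries were below them. The collagen receptor subunit ITGA1 was at 1.13, 1.85 and 2.2 against 1.67, 2.06 and 1.41 FPKM. ITGA2, also a collagen receptor subunit, was at 0.89, 1.14 and 1.16 against 1.38, 0.76 and 1.28 FPKM. Neither separated the groups. ITGA1 shares 2.56% of its exon bases in GENCODE 29 with PELO on the same strand, which was at 7.13 to 10.2 FPKM.

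ITGAE, the alpha subunit of an integrin of intraepithelial lymphocytes, was at 3.25, 3.44 and 3.22 FPKM in shControl and at 3.14, 4.24 and 4.27 FPKM in shPTBP1. Its only known partner, ITGB7, was at 0 to 0.01 FPKM. HASPIN lies within ITGAE on the opposite strand, shares 6.41% of the ITGAE exon bases in GENCODE 29 and was at 9.24 to 10.4 FPKM, and the part of this overlap in the ITGAE value was not tested. The leukocyte subunits were low. ITGAX was at 0.12 and 0.09 FPKM in shControl 1 and 2, at 0.14 and 0.10 FPKM in shPTBP1 1 and 2, and at 0 in both libraries numbered 3, the same libraries in which the neutrophil and monocyte markers were at 0.22 FPKM. Their part in the ITGAX value was not tested.

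Of 24 known integrin pairs, 6 had both subunits present in each library. These were ITGA1-ITGB1, which binds collagen, ITGA3-ITGB1 and ITGA6-ITGB1, which bind laminin, and ITGA5-ITGB1, ITGAV-ITGB1 and ITGAV-ITGB5, which bind RGD ligands. By class this was 1 of 4 collagen, 2 of 4 laminin, 3 of 8 RGD, 0 of 3 LDV and related, and 0 of 5 leukocyte pairs. The alpha subunit was the rarer one in all 6 pairs. ITGB1 was 3.28 to 5.7 times the summed FPKM of its alpha partners, a ratio of 4.77 ± 1.17 in shControl and 4.2 ± 1.18 in shPTBP1 (SD, n = 3 each). That sum counts ITGAV in full, though ITGAV also pairs with ITGB5. Single libraries allowed 6 to 8 pairs. ITGA2-ITGB1 passed in 4 libraries, and ITGA6-ITGB4 in 1, shControl 3. With 5 FPKM as the level, 3 pairs were present, against 6.

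**Figure D2:**
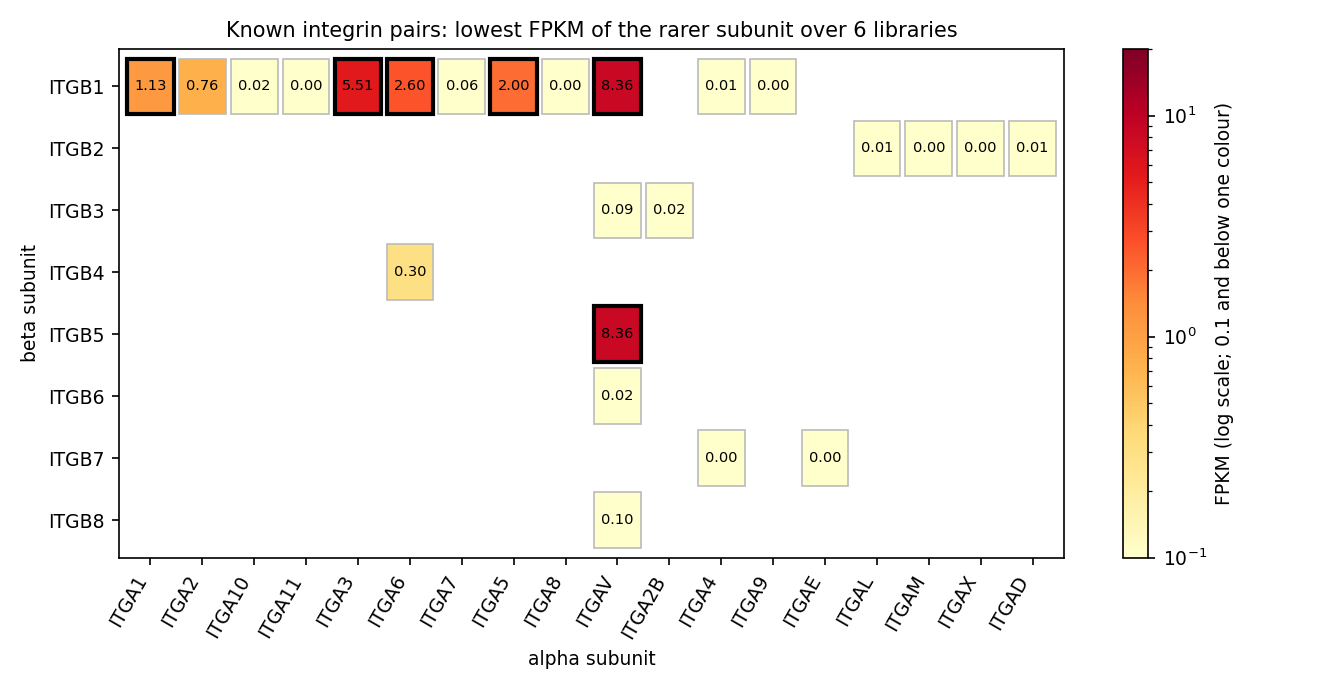
The 24 known integrin pairs, with alpha subunits across and beta subunits down. Each box gives the lowest FPKM of the rarer subunit over the 6 libraries, coloured on a log scale, and the 6 boxes with a heavy outline are the pairs present in every library, 5 of them with ITGB1.

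Among the laminin chains LAMC1, the gamma chain of most laminins, was the highest by mean FPKM. It was at 31.2, 36.6 and 40.2 FPKM in shControl and at 38.7, 37.6 and 37.4 FPKM in shPTBP1. LAMB1 was at 11.2, 14.3 and 19.4 against 18.4, 17.2 and 15.9 FPKM. In both chains shControl 3 was the highest of all 6 libraries and shControl 1 and 2 were the lowest. LAMA1, an alpha chain best known from the embryo, was at 17.9, 19.0 and 7.06 FPKM in shControl and at 11.4, 14.5 and 13.3 FPKM in shPTBP1. Here shControl 3 was the lowest library and shControl 1 and 2 were the highest, and LAMA1 gave 33% to 66.5% of all laminin alpha FPKM. LAMA5, the broadly expressed epithelial alpha chain, was at 7.85, 10.9 and 11.95 against 10.3, 12.5 and 12.01 FPKM. LAMA3 was at 1.03, 1.44 and 2.27 against 2.16, 2.62 and 1.77 FPKM. Both overlapped between groups.

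Of 17 described laminin trimers, 6 had all 3 chains present in each library: LAMA1, LAMA3 or LAMA5 with LAMB1 or LAMB2 and LAMC1. LAMA5-LAMB2-LAMC3 passed in 2 libraries, since LAMC3 was at 0.71 to 1.10 FPKM.

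In the contrast of shPTBP1 with shControl, 0 of the 33 tested genes passed an adjusted p of 0.05 by edgeR, beside 0.0309% of all 19393 genes tested. At an unadjusted p under 0.05 there were 4 of 33, or 12.1%, all higher in shPTBP1, beside 5.69% of all tested genes in either direction and 3.58% in the higher direction. The 4 were ITGA6, LAMB2, LAMA2 and ITGA3. Groups did not overlap in normalised counts for 5 genes, these and LAMB3, all higher, beside 6.49% of all tested genes higher and 5.46% lower. The median log2 fold change was 0.17 over the 33 genes, with 24 positive, and -0.01 over all 19393 tested genes, with 9304 positive. It was 0.17 for integrin alpha, 0.00 for integrin beta and 0.21 for laminin genes.

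ITGA6 (ENSG00000091409, chr2:172427354-172506459, hg38), a laminin receptor subunit, was at 2.64, 2.60 and 2.90 FPKM in shControl and at 4.14, 4.46 and 4.04 FPKM in shPTBP1. Every shPTBP1 library was above every shControl library, shControl 3 included. The log2 fold change was 0.66 ± 0.12 (SE, n = 3 per group). The edgeR quasi-likelihood test gave an unadjusted p of 0.000733 and an adjusted p of 0.257. DESeq2 gave the same fold change with an adjusted p of 0.00673, the only one called of the 37 genes of the family that this fit tested, beside 0.726% of all genes with an adjusted p in DESeq2. With the independent filtering of DESeq2 set at 0.05, a setting chosen after the default result was seen, the adjusted p was 0.00656 and the share of all genes 0.753%.

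ITGA3 (ENSG00000005884, chr17:50055968-50090480), the other laminin receptor subunit present, was at 5.51, 5.57 and 8.23 FPKM in shControl and at 8.60, 9.13 and 8.42 FPKM in shPTBP1. shControl 3 lay just below the lowest shPTBP1 library. The log2 fold change was 0.47 ± 0.16 (SE, n = 3 per group), with an adjusted p of 0.797 by edgeR. Together ITGA3 and ITGA6 gave 29.8%, 30.4% and 31.4% of all integrin alpha FPKM in shControl and 34.4%, 38.5% and 38.2% in shPTBP1. The share of ITGAV was 41.3%, 37.1% and 33.2% against 33.0%, 27.5% and 25.6%. Neither share overlapped between the groups, ITGAV by a narrow margin, and both were computed after the values of the single genes had been seen. Both are parts of the same total, so they are not separate results. The FPKM of ITGAV itself overlapped between the groups, with a log2 fold change of -0.10.

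LAMB2 (ENSG00000172037, chr3:49121114-49133118), a laminin beta chain of vessel, muscle and kidney basement membranes, was at 11.7, 13.8 and 18.9 FPKM in shControl and at 22.0, 25.2 and 20.02 FPKM in shPTBP1. The log2 fold change was 0.63 ± 0.18 (SE, n = 3 per group), with an adjusted p of 0.639 by edgeR. The ratio of LAMB2 to LAMB1 was 0.995 ± 0.043 in shControl and 1.31 ± 0.143 in shPTBP1 (SD, n = 3 each), and it too was computed after the values were seen. LAMB3 was at 15.7, 16.3 and 15.2 against 19.5, 16.7 and 16.6 FPKM, with a log2 fold change of 0.19 ± 0.11 (SE, n = 3 per group) and an adjusted p of 0.953 by edgeR. LAMA2, the alpha chain of muscle laminin, was at 0.02, 0.05 and 0.04 against 0.13, 0.07 and 0.11 FPKM, with a log2 fold change of 1.40 ± 0.42 (SE, n = 3 per group) and an adjusted p of 0.675 by edgeR. Its levels were far under 1 FPKM in every library. The summed fibroblast and stellate markers given above were also higher in every shPTBP1 library, but of these markers only COL3A1 separated the groups. Their part in these differences was not tested.

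**Figure D3:**
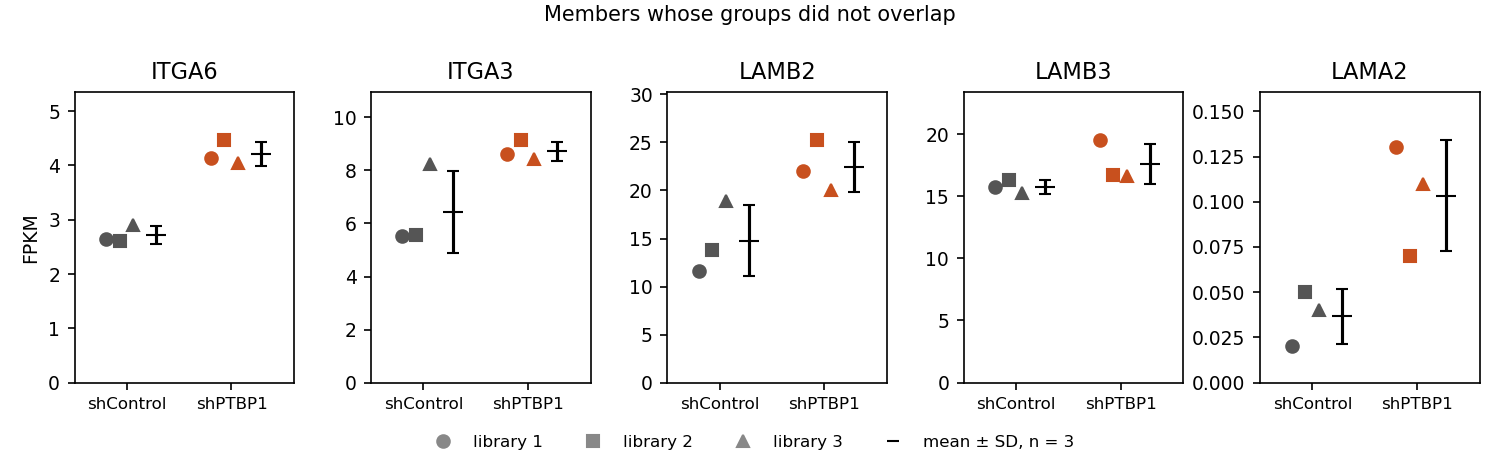
FPKM of the 5 genes whose groups did not overlap, with 1 point per library and the mean ± SD of 3 libraries beside them; each axis starts at 0. shControl 3 is near the shPTBP1 libraries for ITGA3 and LAMB2 but not for ITGA6.

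RefSeq (GRCh38.p14) held a promoter window for 26 of the 38 genes. The bases upstream of ITGA6 and LAMB2 are shown because these had the smallest p-values of the 33. The ITGA6 stretch is chr2:172427086-172427335 on the + strand and the LAMB2 stretch is chr3:49133119-49133300 on the - strand, both 5′ to 3′, with any GC box (GGGCGG, either strand) to be printed in capitals.
ITGA6: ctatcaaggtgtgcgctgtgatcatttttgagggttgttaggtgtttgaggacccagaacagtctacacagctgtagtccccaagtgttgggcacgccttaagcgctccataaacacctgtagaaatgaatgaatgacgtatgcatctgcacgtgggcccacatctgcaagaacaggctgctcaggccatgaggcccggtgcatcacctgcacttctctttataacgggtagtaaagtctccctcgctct
LAMB2: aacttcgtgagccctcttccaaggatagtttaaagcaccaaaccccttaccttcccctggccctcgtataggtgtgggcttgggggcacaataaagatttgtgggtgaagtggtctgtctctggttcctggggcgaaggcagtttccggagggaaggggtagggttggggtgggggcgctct
Neither stretch held these letters, which 42.6% and 39.1% of all 35116 promoter windows held over as many bases. The stretches were 50.8% and 56.6% G or C.

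shControl 3 lay outside the range of shControl 1 and 2 for many of these genes. The distance was large for some, as for ITGA5, at 5.55 against 2.25 and 2.00 FPKM. It was small for others, as for ITGAE, at 3.22 against 3.25 and 3.44 FPKM. Of the 16 genes with a mean of 1 FPKM or more, shControl 3 was above both in 13 and below both in 3, whatever the distance. Of all 12018 genes at that mean, it was above both in 38.6% and below both in 41.2%. shControl 1 and 2 were below all shPTBP1 libraries for 9 of the 16 and above them for 1, LAMA1, beside 17.6% and 24.5% of all genes at that mean. Without shControl 3, edgeR gave 12 of 34 tested genes, or 35.3%, at an unadjusted p under 0.05, of which 11 were higher and 1, LAMA1, lower. The same fit gave 16.6% of all tested genes. ITGA5, with a log2 fold change of 1.17 ± 0.14 (SE) and an adjusted p of 0.043 by edgeR, and ITGA3, with 0.67 ± 0.08 (SE) and an adjusted p of 0.0447 by edgeR, then passed the adjusted threshold, beside 0.674% of all genes. LAMA1 was at -0.48 ± 0.11 on the log2 scale (SE, adjusted p = 0.135 by edgeR). With only the libraries numbered 1 and 2, 11 of 33 genes had an unadjusted p under 0.05 by edgeR, beside 17.7% of all tested genes. In that fit 0 of the 33 passed the adjusted threshold by edgeR, and the share of all genes past it is not given here.

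**Figure D4:**
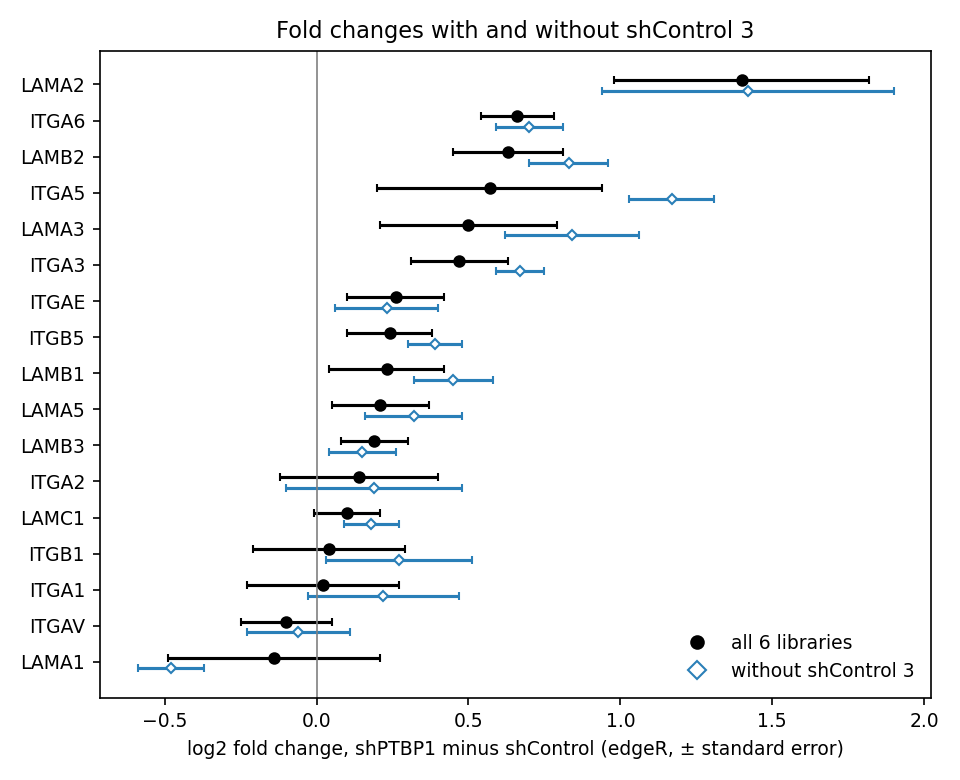
Log2 fold change of shPTBP1 against shControl with its standard error (edgeR) for the 16 genes with a mean of at least 1 FPKM and for LAMA2, with all 6 libraries (filled circles) and without shControl 3 (open diamonds). ITGA5 goes from 0.57 to 1.17, while ITGA6 goes from 0.66 to 0.70.

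Of the 5 lists of other genes of the pathway, 87 genes were tested and 0 passed the adjusted threshold by edgeR, with 12, or 13.8%, at an unadjusted p under 0.05. Over all tested genes these shares were 0.0309% and 5.69%, and 3.58% were higher at the unadjusted level. Of 35 integrin adaptors and focal adhesion genes, 4 were higher and 1 lower at that level, and the median log2 fold change was 0.05. TNS4, a focal adhesion tensin, was at 4.09, 5.52 and 8.29 FPKM in shControl and at 11.5, 10.9 and 10.9 FPKM in shPTBP1 (log2 fold change 0.92 ± 0.23, SE). TNS2, another tensin, was at 1.94, 1.98 and 2.79 against 3.16, 3.75 and 3.27 FPKM (log2 fold change 0.63 ± 0.17, SE). ACTN1, which crosslinks actin at adhesions, was at 17.8, 15.6 and 15.4 against 19.0, 21.6 and 22.4 FPKM (log2 fold change 0.40 ± 0.12, SE). PARVB, a partner of integrin-linked kinase, was lower, at 5.51, 5.16 and 4.77 against 4.22, 4 and 4.20 FPKM (log2 fold change -0.29 ± 0.11, SE). TNS1, under 1 FPKM in every library, was the remaining gene at that level.

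Of 19 basement membrane and laminin network genes tested, 2 were higher at an unadjusted p under 0.05, the type IV collagens COL4A1 and COL4A2, and the median log2 fold change was 0.19. COL4A1 was at 4.51, 5.48 and 5.36 FPKM in shControl and at 8.08, 7.55 and 7.35 FPKM in shPTBP1, a log2 fold change of 0.61 ± 0.11 (SE, n = 3 per group, adjusted p = 0.257 by edgeR). COL4A2 was at 6.01, 6.81 and 7.52 against 8.27, 8.44 and 7.88 FPKM (log2 fold change 0.30 ± 0.11, SE). Of 21 tested ligands other than laminins and collagens, 4 were higher at that level, with a median log2 fold change of 0.40 over the 21. NPNT, a basement membrane ligand, was at 6.52, 6.49 and 9.57 against 11.9, 11.5 and 11.4 FPKM (log2 fold change 0.65 ± 0.16, SE). FBN1, a microfibril protein, was at 3.09, 3.73 and 3.12 against 4.61, 4.28 and 4 FPKM (log2 fold change 0.40 ± 0.12, SE). TGFB3, a growth factor whose latent form binds integrins, was at 0.60, 0.56 and 0.83 against 1.06, 1.12 and 0.89 FPKM (log2 fold change 0.66 ± 0.22, SE). TNC, under 1 FPKM in every library, was the remaining ligand. None of 4 hemidesmosome genes was at that level (median 0.18). Of 8 other laminin receptors 1 was, SDC1, at 19.0, 17.7 and 17.5 against 22.3, 21.6 and 21.5 FPKM (log2 fold change 0.30 ± 0.10, SE), and the median over the 8 was 0.09.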

How the data were processed

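Poly(A) RNA from 6 MHCC97H libraries was sequenced after a dUTP library preparation. Per the labels, the submitters' processing notes name cutadapt 1.9, FastQC, HISAT2 2.2.1, StringTie and hg38, and the strand setting of the counting is not given in the sources used here. The authors deposited 1 gene table with FPKM values, which divide by transcript length and depth, and estimated counts, which were tested as deposited after rounding. Between 32.5% and 34.4% of counts from 1 to 40 were multiples of 4, and dividing by 4 was tried as an alternative. The members and lists were chosen with earlier results of these data known.

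Counts were tested in R 4.3.3 with edgeR 4.0.16 (TMM, filterByExpr, quasi-likelihood F test, two-sided, Benjamini-Hochberg over 19393 genes) for shPTBP1 against shControl. The SE given with edgeR fold changes was derived from that test, as the absolute log2 fold change divided by the square root of F. DESeq2 1.42.0 and limma 3.58.1 on log2(FPKM + 1) and log2(FPKM + 0.1), for genes with a mean of at least 1 FPKM, were alternatives, as were no filter, the library number as a block or covariate, and leaving out libraries. Scripts were tested on simulated data. A pair or trimer counted as present at 1 FPKM of each subunit in each library, with 0.5, 2 and 5 FPKM as alternatives. Fold change, SE and adjusted p are given for integrin and laminin genes with p under 0.05 or separate groups, and values per library for those with a mean of at least 1 FPKM. Of each list, up to 4 genes with a group mean of at least 1 FPKM and an unadjusted p under 0.05 by edgeR are given with values. Apart from DAG1, list genes above that p are not described singly. Exon overlaps are from GENCODE 29, in which 14 of the 38 genes have the same start and end as in the table. 1 laminin trimer is not reported here.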

Additional observations from a re-analysis of the deposited data

How the results depend on the processing

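Against 0 genes of the 38 past the adjusted threshold, DESeq2 gave 1 of 37 tested (ITGA6), beside 0.726% of all genes. Its filtering at 0.05, which was added after the default result was seen, also gave 1, beside 0.753% of all genes. Leaving out 1 library gave 0 to 2 (ITGA3 and ITGA5, without shControl 3, beside 0.674% of all genes). Against 4 at an unadjusted p under 0.05, beside 5.69% of all tested genes, leaving out 1 library gave 3 to 12. The 12 came without shControl 3, a fit that gave 16.6% of all tested genes. The libraries numbered 1 and 2 alone gave 11, beside 17.7% of all tested genes. Against 0 list genes, DESeq2 gave 2 of 89 tested (COL4A1 and TNS4) under both filtering settings, beside the same 0.726% and 0.753% of all genes. Leaving out 1 library gave 0 to 3 (NPNT, TNS1 and TNS4, without shControl 3, beside 0.674% of all genes). Present pairs went from 6 to 3 at 5 FPKM, and present trimers stayed between 4 and 7 in every alternative. Of 253 alternative fold changes of named genes, 240 kept their direction and side of the threshold, 4 passed it and 9 changed sign. Over the fits without 1 library, the log2 fold change of ITGA1 ran from -0.20 (without shControl 1; -0.12 without shPTBP1 2) to 0.22, of ITGA2 from -0.02 (without shPTBP1 1) to 0.36, of ITGAV from -0.26 to 0.01 (without shPTBP1 3), of ITGB1 from -0.18 (without shControl 1; -0.14 without shPTBP1 3) to 0.27, and of LAMA1 from -0.48 to 0.08 (without shControl 2; 0.04 without shControl 1). ITGAV was at 0.05 with the libraries numbered 1 and 2. The cause of these sign changes was not tested. Same-numbered libraries deviated together with r of -0.00909, 0.158 and 0.0832 over genes, so the numbers were not taken as pairs in the main fit. Red cell markers, neutrophil and monocyte markers and DAG1 did differ by number in both groups, which r over all genes does not show. With the replicate block 0 of 33 tested genes passed the adjusted threshold by edgeR and 4 were at an unadjusted p under 0.05. The shares of all genes in that fit are not given here, so the 4 cannot be set beside them.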

Other observations

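DAG1, the dystroglycan gene, whose product is a laminin receptor outside the integrin family, was singled out after its values were seen. It was at 54.3, 56.6 and 1.74 FPKM in shControl 1, 2 and 3 and at 50.6, 53.0 and 1.49 FPKM in shPTBP1 1, 2 and 3. It was thus low in both libraries numbered 3, whatever the group, and the log2 fold change between groups was -0.09 ± 1.35 (SE, n = 3 per group).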
